A study of Mus musculus with 10 samples.

Results

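Cadherins are calcium-dependent adhesion proteins at the cell surface, and the genes described here are Cdh2, Cdh11 and Cdh13 with the beta protocadherins Pcdhb16 to Pcdhb22. They are 10 genes of 18193 with a single symbol on the array, and they were taken from a list of named genes. All 18 probe sets annotated to them were used, 8 for the cadherins and 10 for the beta protocadherins, over 10 Affymetrix mouse arrays in 4 groups. The genes had been chosen with earlier results of these same arrays known, and the contrast used for the choice is not stated. The difference between the lines is taken here as that contrast, though not every member differs between them. Differences between the lines are therefore given below as a description, with no test. The response to heat is tested on the assumption that the choice did not rest on it.

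The arrays measured RNA of mouse embryonic fibroblasts from a line labelled MEF(-/-), an hsp70 knockout, and from a line labelled MEF(+/+), in which hsp70 is rescued. They are called KO-labelled and rescue-labelled here, and each genotype is represented by 1 line. After 20 hours in culture some wells of both lines received a preshock, 30 minutes at 43 °C with a 3 hour recovery, and other wells stayed unheated until 23 hours. There were 3 arrays of preshocked and 3 of unheated KO-labelled cells, and 2 of each for rescue-labelled cells. All groups share the growth medium and the pooling of 144 wells for each RNA sample. Whether arrays of the same group came from independent cultures is not stated, so the p-values speak only of array-to-array spread, which may be technical.

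Classical cadherins bind cadherins of a neighbouring cell through their extracellular repeats and are tied to the actin cytoskeleton inside the cell by catenins. Cdh2 encodes N-cadherin, the cadherin typical of mesenchymal and neural cells. Cdh11 encodes cadherin-11, a type II cadherin of mesenchyme, fibroblasts and bone-forming cells. Cdh13 encodes T-cadherin, which lacks a cytoplasmic tail and is held in the membrane by a lipid anchor. The beta protocadherins are encoded by a tandem array of single-exon genes between the alpha and gamma protocadherin clusters, each with a promoter of its own, and are best known from neurons, where single cells express different combinations of them. In the RefSeq annotation of GRCm38.p6, Pcdhb16 to Pcdhb22 are the last 7 of 22 beta genes in cluster order. Genome coordinates are not given here because the deposited table names no build.

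Values are log2 intensities after quantile normalization, which gives every array the same distribution with a median of 5.99. Of the 18 probe sets, 7 were among the 60% with the highest mean signal, the set that was tested (27022 probe sets, lowest mean 4.97). They were both probe sets of Cdh2 and 1 each of Cdh11, Cdh13, Pcdhb17, Pcdhb21 and Pcdhb22. The other 11 lay below that limit, and Pcdhb16, Pcdhb18, Pcdhb19 and Pcdhb20 had no probe set above it. A measure of signal over background for each probe set was not given.

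Facts of the whole series bear on these values. The median deposited intensity ran from 50.7 to 73.7 over 8 arrays and was 100.4 and 107.0 in the KO-labelled arrays numbered 5 (preshocked) and 6 (unheated), a pair that stands apart. Hspa1b, the inducible Hsp70 gene, rose after preshock on all of its 3 probe sets in both lines, the line labelled knockout included. On one of them the deposited intensity went from 79.5 ± 23.5 to 23080 ± 6359 in KO-labelled arrays (SD, n = 3 each). Whether these probe sets lie in the deleted part of the locus is not known here, so directions between the lines rest on the labels. Hspa1a, its neighbour, had group means from 8.15 to 18.02. The signal filter was passed by 13 of 13 fibroblast markers, 8 of 10 neural, 5 of 7 muscle, 5 of 6 leukocyte, 4 of 8 epithelial, 3 of 6 endothelial and 3 of 5 cartilage and bone markers. Of all 18193 genes with 1 symbol, 12225 passed it, so these counts are not read as the presence of a cell type. Epcam, Krt5, Krt8 and Ocln passed among the epithelial markers and the epithelial cadherin Cdh1 did not. Cdh5, Kdr and Esam passed among the endothelial markers and Pecam1 did not.

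Cdh2 was bright in every array and alike in both lines. On probe set 1418815_at the KO-labelled unheated arrays stood at 11.61, 11.93 and 12.14 log2 and the preshocked arrays at 11.58, 12.05 and 12.06. The rescue-labelled unheated arrays stood at 11.50 and 11.98 and the preshocked arrays at 11.38 and 11.91. The 4 groups overlapped, and within each line the same pairs of arrays were low, numbers 13 and 14 in the KO-labelled line and numbers 43 and 44 in the rescue-labelled line. The second probe set, 1449244_at, was steadier, between 10.67 and 10.97 in the 6 KO-labelled and between 10.80 and 10.90 in the 4 rescue-labelled arrays. These levels lay at percentiles 93.2 to 96.0 and 89.5 to 91.2 of their arrays.

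Between the unheated lines Cdh2 differed by -0.15 ± 0.28 and 0.08 ± 0.16 log2 (rescue minus KO, SE), and between the preshocked lines by -0.25 ± 0.28 and 0.01 ± 0.16. With each array centred on its median instead, the unheated values became 0.44 and 0.66, a centring that moves the median difference of all probe sets tested to 0.48. On 1418815_at the unheated value was 0.09 without the rescue-labelled array numbered 44.

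Cdh11 was high in KO-labelled and low in rescue-labelled arrays, and it was the one cadherin among the members whose lines did not overlap over all 10 arrays. On probe set 1450757_at the KO-labelled unheated arrays stood at 9.34, 11.13 and 11.38 log2 and the preshocked arrays at 8.98, 10.49 and 10.82. The rescue-labelled unheated arrays stood at 4.63 and 5.69 and the preshocked arrays at 4.92 and 5.88. Every KO-labelled array lay above every rescue-labelled array, with a gap of 3.09 log2 between the nearest. In deposited intensities the KO-labelled arrays ran from 537.1 to 2642 and the rescue-labelled arrays from 18.6 to 47.7.

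In order of level the Cdh11 groups were KO-labelled unheated (10.62 ± 1.11, SD, n = 3), KO-labelled preshocked (10.10 ± 0.98, n = 3), rescue-labelled preshocked (5.40 ± 0.68, n = 2) and rescue-labelled unheated (5.16 ± 0.75, n = 2). Within a line, neighbours in this order overlapped. Rescue minus KO was -5.46 ± 0.77 log2 in unheated arrays (SE), a 43.9-fold ratio of the normalized means, and -4.69 ± 0.77 in preshocked arrays, a 25.8-fold ratio. In rescue-labelled arrays the probe set lay at percentiles 31.1 to 48.6, below the array median, so the size of the ratio is uncertain. In RNA from a whole culture, fewer cells that express a gene and less RNA per cell cannot be told apart.

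The second Cdh11 probe set, 1435120_at, pointed the same way at a lower signal and did not pass the filter. It ran from 4.91 to 7.12 log2 in the 6 KO-labelled arrays and from 0.13 to 3.76 in the 4 rescue-labelled arrays, with no overlap. Both rescue-labelled unheated arrays had deposited intensities below 1 and were set to 1. The unheated difference of -6.12 log2 thus depends on that floor and was -2.31 with a floor of 16. On both probe sets the arrays numbered 5 and 6 were the lowest of the KO-labelled line. Without these arrays the differences on 1450757_at were -6.29 and -5.44.

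**Figure D1:**
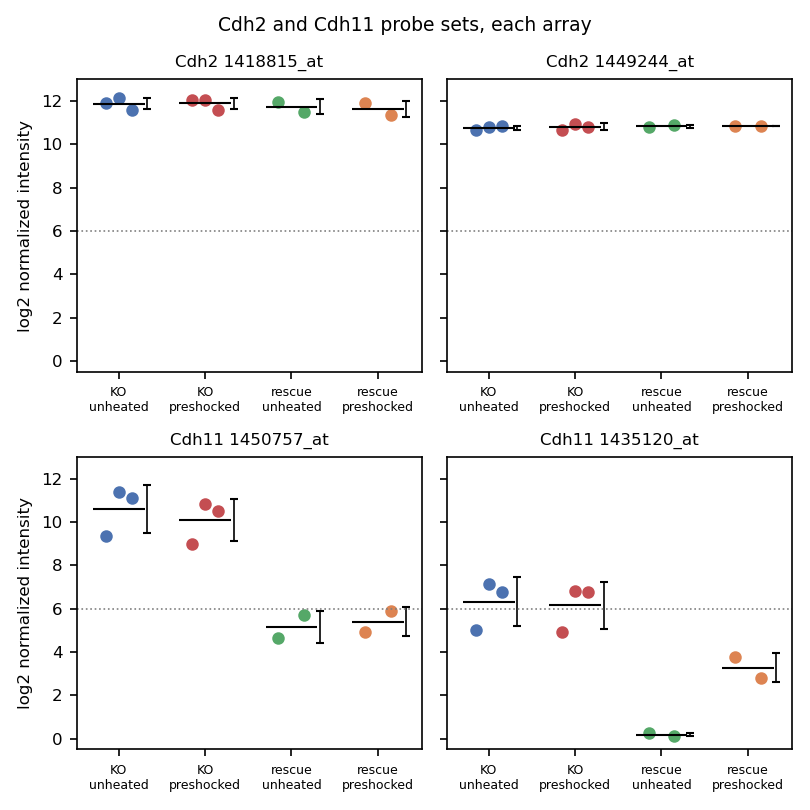
Log2 normalized intensity of the Cdh2 and Cdh11 probe sets in each group (points, arrays; horizontal line, group mean; bar beside it, SD over 3 KO-labelled or 2 rescue-labelled arrays; dotted line, median of all probe sets at 5.99). Cdh2 sits at the same height in the 4 groups, while Cdh11 1450757_at lies between 8.98 and 11.38 in KO-labelled and between 4.63 and 5.88 in rescue-labelled arrays.

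Cdh13 was dim, and its 4 probe sets gave no common picture of the lines. On the one that passed the filter, 1434115_at, the KO-labelled unheated arrays stood at 5.14, 5.42 and 6.09 log2 and the preshocked arrays at 5.49, 5.61 and 7.63. The rescue-labelled unheated arrays stood at 5.70 and 5.97 and the preshocked arrays at 3.55 and 5.49. One KO-labelled preshocked array, number 5, was high and one rescue-labelled preshocked array, number 31, was low, and the rest lay between 5.14 and 6.09. Rescue minus KO was 0.28 ± 0.76 in unheated arrays (SE) and -1.73 ± 0.76 in preshocked arrays. The preshocked value was -0.75 without array 31 and -2.70 without array 43, the other rescue-labelled preshocked array. The probe sets 1423551_at, 1431824_at and 1454015_a_at ran from 0.03 to 5.83 log2, and their lines overlapped when all 10 arrays were compared.

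Among the beta protocadherin probe sets that passed the filter, that of Pcdhb17 differed most between the lines, in the direction opposite to Cdh11. Its single probe set, 1448933_at, stood at 7.77 and 7.80 log2 in rescue-labelled unheated arrays and at 7.45 and 7.64 in rescue-labelled preshocked arrays. KO-labelled unheated arrays stood at 5.21, 5.84 and 6.21 and KO-labelled preshocked arrays at 4.63, 5.02 and 5.58. All rescue-labelled arrays lay above all KO-labelled arrays, by 1.24 log2 between the nearest, and the deposited intensities did not overlap either (150.1 to 222.5 against 24.9 to 121.0). The highest KO-labelled array was number 6, of the pair that stands apart.

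The Pcdhb17 groups in order of level were rescue-labelled unheated (7.78 ± 0.02, SD, n = 2), rescue-labelled preshocked (7.54 ± 0.13, n = 2), KO-labelled unheated (5.75 ± 0.51, n = 3) and KO-labelled preshocked (5.08 ± 0.48, n = 3). The rescue-labelled groups did not overlap each other, and the KO-labelled groups did. Rescue minus KO was 2.03 ± 0.35 log2 in unheated arrays (SE), a 4.09-fold ratio, and 2.47 ± 0.35 in preshocked arrays, a 5.53-fold ratio. Over the 19 alternatives tried the first ran from 1.75 to 2.37 and the second from 2.14 to 2.82.

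Pcdhb22 and Pcdhb21, the last genes of the cluster, were higher in rescue-labelled arrays by smaller amounts. Pcdhb22, on probe set 1418941_at, stood at 6.56 and 6.65 log2 in rescue-labelled unheated and at 6.42 and 6.65 in rescue-labelled preshocked arrays, against 5.69, 5.96 and 6.03 in KO-labelled unheated and 5.09, 5.77 and 5.78 in KO-labelled preshocked arrays. These lines did not overlap, with a gap of 0.39 log2. Rescue minus KO was 0.71 ± 0.25 and 0.99 ± 0.25 log2 in unheated and preshocked arrays (SE).

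Pcdhb21, on probe set 1420422_at, ran from 6.20 to 6.75 log2 in the 4 rescue-labelled and from 5.51 to 6.34 in the 6 KO-labelled arrays, and 1 rescue-labelled preshocked array lay within the KO-labelled range. Its differences were 0.65 ± 0.27 and 0.61 ± 0.27. For both genes the difference depends on the normalization. With the deposited scaling it was 0.26 and 0.54 for Pcdhb22 and 0.20 and 0.16 for Pcdhb21, and the deposited intensities of the lines overlapped (30.1 to 88.1 against 72.2 to 89.7, and 39.4 to 102.9 against 58.4 to 92.8).

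**Figure D2:**
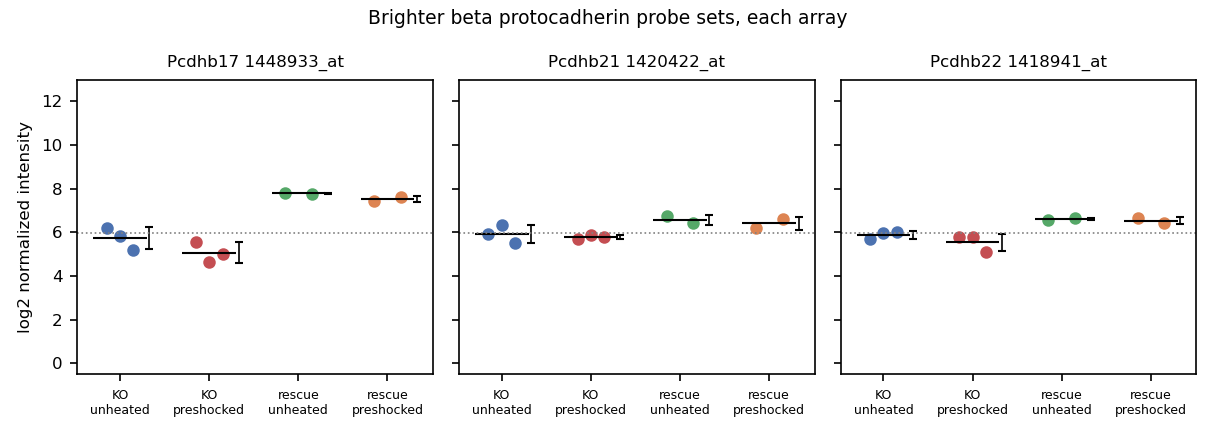
Log2 normalized intensity of Pcdhb17, Pcdhb21 and Pcdhb22 in each group (points, arrays; horizontal line, group mean; bar beside it, SD over 3 KO-labelled or 2 rescue-labelled arrays; dotted line, median of all probe sets at 5.99). The 4 rescue-labelled arrays of Pcdhb17 lie between 7.45 and 7.80, above the KO-labelled arrays at 4.63 to 6.21, and the separation is smaller for Pcdhb22 and incomplete for Pcdhb21.

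The dim beta protocadherin probe sets varied widely between arrays of a group. Pcdhb16 had 3 probe sets, of which 1441994_at ran from 5.26 to 6.33 log2 in rescue-labelled and from 2.25 to 4.89 in KO-labelled arrays without overlap. The other 2, 1441358_at and 1450216_at, overlapped between the lines over all 10 arrays. The second was apart in unheated arrays and not in preshocked arrays, and it ran from 0.05 to 5.12 within the KO-labelled arrays alone. Pcdhb18 ran from 0.28 to 5.02 in KO-labelled and from 0.25 to 4.92 in rescue-labelled arrays. Pcdhb19, Pcdhb20 and the second probe set of Pcdhb21, 1438106_at, had rescue-labelled means above the KO-labelled means in both conditions, with overlap over all 10 arrays. Within a condition, 1438106_at was apart in both and Pcdhb20 in preshocked arrays.

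Set against the rest of the beta cluster, all 10 probe sets of Pcdhb16 to Pcdhb22 had a higher mean in the 4 rescue-labelled than in the 6 KO-labelled arrays, and 9 of the 18 probe sets of Pcdhb1 to Pcdhb15 did. In 3 of the 10 every rescue-labelled array lay above every KO-labelled array, against 0 of the 18, and on deposited intensities 1 of the 10 did, that of Pcdhb17. The choice of members may fix this contrast, so it is a description only. The share of all probe sets apart over all 10 arrays is not given here, so the count of 3 is not read as unusual. None of the 18 other beta probe sets passed the signal filter, the brightest having a mean of 4.80. Beta protocadherin genes resemble one another in sequence, and whether a probe set reads more than 1 of them was not tested.

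**Figure D3:**
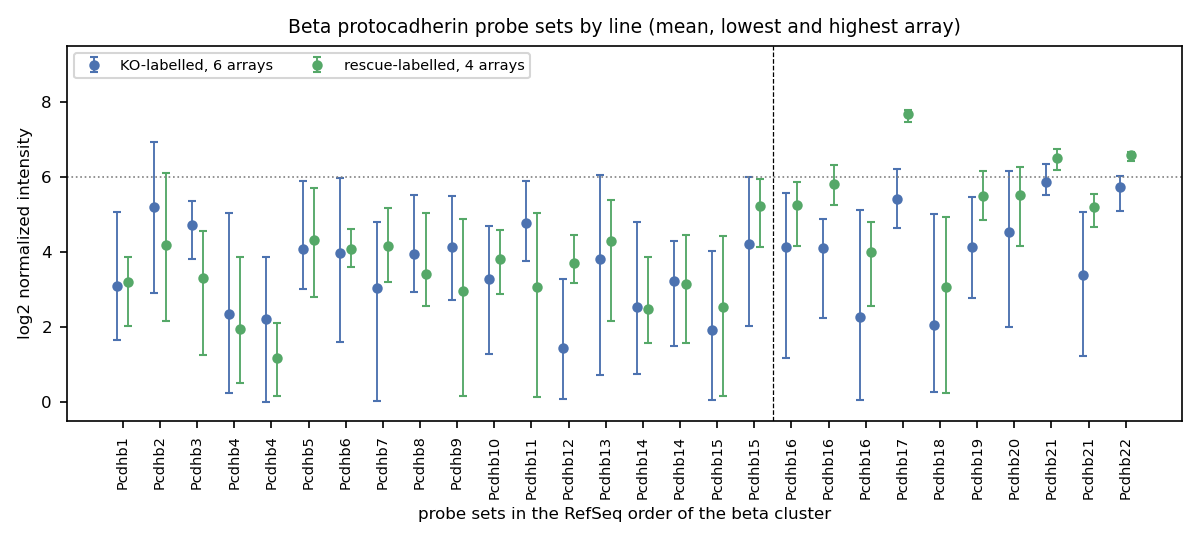
Log2 normalized intensity of the 28 beta protocadherin probe sets in the order of their genes in the cluster (points, mean of 6 KO-labelled or 4 rescue-labelled arrays; bars, lowest and highest array; dotted line, median of all probe sets at 5.99; dashed line, start of Pcdhb16 to Pcdhb22). Pcdhb17 in rescue-labelled arrays stands highest, and most other probe sets lie below the dotted line with wide ranges.

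Over the 18 member probe sets, the unheated arrays of the lines did not overlap in 8, where 26.2% of all 45037 probe sets were apart in either direction. They were both probe sets of Cdh11, higher in KO-labelled arrays, and 6 beta protocadherin probe sets, higher in rescue-labelled arrays. In preshocked arrays 10 were apart, where 25.7% of all were. The 3 higher in KO-labelled arrays were both probe sets of Cdh11 and Cdh13 1434115_at, whose nearest arrays stood at 5.488 and 5.487. The 7 higher in rescue-labelled arrays were Cdh13 1431824_at and beta protocadherin probe sets. Nothing is read from these counts, since the members may have been chosen on this contrast. Of the probe sets tested, 1.42% differed by at least 4-fold between the unheated lines, the size reached by Cdh11 1450757_at and Pcdhb17.

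No member passed the test for a response to preshock. limma called 0 of the 7 probe sets tested in KO-labelled arrays at an adjusted p under 0.05 (Benjamini-Hochberg over 27022 probe sets, of which 0.485% were called), and 0 at an unadjusted p under 0.05, where 9.18% of all were. In rescue-labelled arrays it called 0 of 7 (0.0851% of all), with 0 at an unadjusted p under 0.05 (5.93% of all). For the difference of the responses, rescue minus KO, it called 0 of 7 and 0% of all, with 0 of 7 at an unadjusted p under 0.05 (1.39% of all). The lowest adjusted p of a member was 0.597, for Pcdhb17 in KO-labelled arrays.

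The intervals of these responses differ in width by gene. Cdh2 changed by 0.05 ± 0.15 log2 in KO-labelled arrays on probe set 1449244_at (SE, 95% interval -0.28 to 0.39) and by -0.02 ± 0.18 in rescue-labelled arrays (-0.43 to 0.39), and by 0.01 ± 0.25 and -0.10 ± 0.30 on 1418815_at. Changes of 2-fold lie outside each of these 4 intervals, of which the widest ran from -0.79 to 0.60. For Cdh13 1434115_at the intervals were -0.86 to 2.25 and -3.22 to 0.59, too wide to tell a 2-fold change from none.

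Cdh11 stood at -0.52 ± 0.69 log2 after preshock in KO-labelled arrays (SE, limma adjusted p = 1, interval -2.10 to 1.06). The arrays numbered 5 and 6 were low together, and without them the value was -0.61. Preshocked and unheated arrays of a line carry adjoining numbers, and the members of such pairs deviated together. Pair by pair the differences were -0.36 (numbers 5 and 6), -0.55 (11 and 12) and -0.64 (13 and 14), lower after preshock in 3 of 3 pairs. With the pairs as a block the limma adjusted p was 0.0789, still not called, and it ran from 0.0789 to 1 over the alternatives. In rescue-labelled arrays, where the probe set is dim, the pairs differed by 0.29 (31 and 32) and 0.19 (43 and 44), with an adjusted p of 1, and 0.396 with the block. The difference of these responses, 0.76 ± 1.08 log2, had an adjusted p of 1, and 0.871 with the block. For both of these the block gave the lowest adjusted p over the alternatives, and the highest was 1.

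Pcdhb17 stood at -0.67 ± 0.31 log2 in KO-labelled arrays (SE, limma adjusted p = 0.597, interval -1.40 to 0.05) and at -0.24 ± 0.38 in rescue-labelled arrays (adjusted p = 1). It was lower after preshock in all 5 pairs, by -0.63, -1.21 and -0.19 in the KO-labelled line and by -0.34 and -0.13 in the rescue-labelled line. With the block the limma adjusted p in KO-labelled arrays was 0.184, the lowest over the alternatives, which reached 1. Pcdhb22 stood at -0.35 ± 0.22 and -0.07 ± 0.27 in the KO-labelled and the rescue-labelled line, and Pcdhb21 at -0.13 ± 0.24 and -0.17 ± 0.30, with pairs on both sides of 0.

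**Figure D4:**
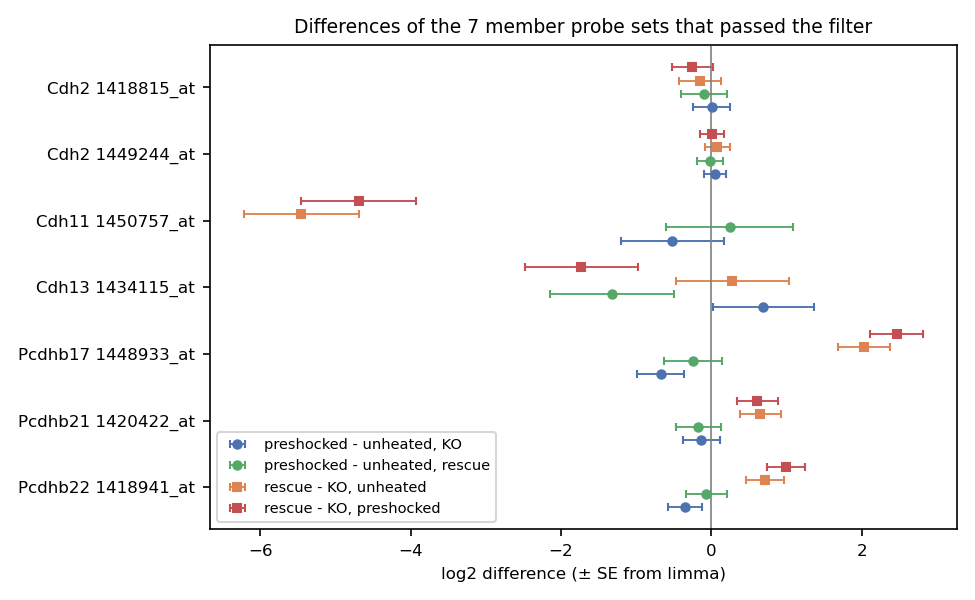
Log2 differences (± SE from limma) of the 7 member probe sets that passed the signal filter, with preshocked minus unheated for each line (circles) and rescue minus KO for each condition (squares). The responses lie between -0.67 and 0.24 except for Cdh13, while the line differences reach -5.46 for Cdh11 and 2.47 for Pcdhb17.

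Other genes of the adhesion system came from lists that were chosen with earlier results of these data known. Genes named from them were mostly picked for the largest unheated line differences, so their adjusted p-values between the lines are descriptive. Each gene is given by its brightest probe set. Over all 12225 genes tested in this way, limma called 0.605% for preshock in the KO-labelled line and 0.0982% in the rescue-labelled line, and 0.106% and 0.09% between the unheated and between the preshocked lines. At an unadjusted p under 0.05 these shares were 10.4%, 6.91%, 10.5% and 11.1%, and the counts below are to be read against them. Of 6 tested cadherin genes outside the members, limma called 0 for either preshock response (0 unadjusted) and 0 between the lines (2 unadjusted between the unheated and 2 between the preshocked lines). Cdh26 stood at 1.0 log2 between the unheated and 0.94 between the preshocked lines, without overlap in either condition (limma adjusted p = 0.221 and 0.232). Cdh6 stood at 0.87 and 1.43, apart in preshocked arrays only. Cdh15, the muscle cadherin, stood at -2.24 between the unheated lines without overlap, and at 0.10 with overlap between the preshocked lines (adjusted p = 0.382 and 0.971). Cdh22 stood at -0.66 and -0.24, apart in unheated arrays only. Cdh1 and Cdh3 did not pass the filter. The median difference of the 6 was 0.43 between the unheated lines, against -0.03 over 12225 genes tested.

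Catenins and other cadherin partners had 13 members tested, with 0 called by limma in either preshock response (1 each at an unadjusted p under 0.05) and 0 between the lines (3 and 2 unadjusted, unheated and preshocked). Beta-catenin (Ctnnb1), which binds classical cadherin tails, stood at 13.79 log2 in KO-labelled and 13.82 in rescue-labelled arrays, and p120-catenin (Ctnnd1), which stabilises cadherins at the membrane, at 9.43 and 9.62. Ctnnal1 stood at 1.01 log2 between the unheated and 0.99 between the preshocked lines, and Ctnnd2 at -1.55 and -1.27, both without overlap in either condition (limma adjusted p from 0.187 to 0.415). Ctnnd1 stood at 0.40 and -0.02 with overlap, and Afdn at -0.63 and -0.19, apart in unheated arrays only. The median of the list between the unheated lines was 0.11.

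Of the non-clustered protocadherins and other cadherin relatives, 13 of 25 on the array were tested, and limma called 0 in each preshock response (1 each unadjusted) and 0 between the lines (2 and 4 unadjusted). Pcdh17 stood at -1.19 log2 between the unheated and -1.20 between the preshocked lines, and Pcdh10 at -1.01 and -0.96, both without overlap in either condition (limma adjusted p from 0.338 to 0.484). Pcdh7 stood at 0.72 and 0.88, apart in preshocked arrays only, and Pcdh18 at 0.33 and 0.28 with overlap. Pcdh18 had the largest responses of this list, -1.22 log2 in KO-labelled arrays and -1.28 in rescue-labelled arrays, which limma did not call (adjusted p = 0.158 and 0.424). Of the alpha and gamma genes only Pcdhgc4 had a probe set with a single symbol, and it overlapped between the lines. Probe sets shared by several alpha genes are not named here.

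Regulators of the clustered protocadherins, which include the insulator protein Ctcf, cohesin subunits and DNA methyltransferases, were all tested (15 genes), and limma called 0 in any of the comparisons (1 unadjusted in each comparison between lines and 0 in the responses). Smchd1, a chromatin protein that represses clustered protocadherin genes, stood at 12.04 log2 in KO-labelled and 11.35 in rescue-labelled arrays, a difference of -0.76 between the unheated and -0.61 between the preshocked lines, without overlap in either (limma adjusted p = 0.399 and 0.465). Dnmt1 stood at 0.35 and 0.48, also without overlap in either condition (adjusted p = 0.606 and 0.494). Dnmt3b stood at -0.67 between the unheated and 1.05 between the preshocked lines, and Setdb1 at 0.17 and 0.16, all with overlap. Ctcf stood at 10.82 and 10.71 in the lines. Of 6 transcription factors of the epithelial to mesenchymal transition, limma called 0 (1 unadjusted, in the KO-labelled response). Snai1 and Zeb2 stood at 0.61 and 0.50 between the unheated lines without overlap (adjusted p = 0.535 and 0.594), and at 0.12 and -0.03 with overlap between the preshocked lines.

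Markers of other cell types gave the following beside the line differences of the members. The summed deposited intensity of the 7 muscle markers, of which 5 passed the filter, ran from 622.9 to 1239 in KO-labelled and from 301.3 to 382.4 in rescue-labelled arrays, without overlap. For the 10 neural markers it ran from 4991 to 5850 and from 4470 to 6395. Among them Tubb3 stood at -1.74 and -2.86 log2 between the unheated and preshocked lines, Nes at -0.97 and -0.85 and Sox2 at 0.43 and 0.77. These 3 did not overlap in either condition. Map2, Ncam1, Gfap and Rbfox3 overlapped in both conditions, and Syp was apart in preshocked arrays only. Snap25 and Elavl3 did not pass the filter. For the 5 cartilage and bone markers on the array the sum ran from 512.4 to 1603 and from 349.5 to 1571. The 13 fibroblast markers ran from 75160 to 122400 and from 102100 to 112800. Within the muscle list Myog and Myh3 did not pass the filter. Acta1 stood at 9.03 log2 in KO-labelled and 7.53 in rescue-labelled arrays, without overlap in either condition. The other muscle markers had line means of 5.99 or lower, so Acta1 weighs most in the muscle sum. All these sums are of intensities before quantile normalization. Myod1, Des and Ckm overlapped in both conditions. They stood at -0.70, -0.50 and -0.97 log2 between the unheated lines and at 0.20, 0.21 and 0.21 between the preshocked lines. Cdh15, also in this list, was apart in unheated arrays only. The part of these cells or genes in the Cdh11 and Pcdhb17 differences was not tested. Among all marker lists limma called 1 gene in a preshock response, Sox9, at 2.00 log2 in KO-labelled arrays (adjusted p = 0.0291), where 0.605% of all genes were called. In rescue-labelled arrays it stood at 2.32 (adjusted p = 0.0781), which was not called.

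The genes whose levels over the 10 arrays were most like those of a member are given as a description, since the arrays share pairs and lines. For Cdh11 1450757_at they were Cycs (Pearson r = 0.981), Ptp4a2 (0.972) and Cd109 (0.971). Cycs stood at 13.95 log2 in KO-labelled and 13.66 in rescue-labelled arrays, Ptp4a2 at 13.34 and 13.13, and Cd109 at 9.54 and 7.27. For the mean of Pcdhb17, Pcdhb21 and Pcdhb22 they were Sema5a (0.985), which went from 5.47 to 8.09 between the lines, the imprinted gene Peg3 (0.961), from 6.00 to 8.53, and Hs2st1 (0.960), from 11.28 to 11.82. For Cdh2 1418815_at they were Sclt1 (0.962), 0610010F05Rik (0.958) and Mib1 (0.954), all with lines within 0.25 log2 of each other. Cdh13 1434115_at came closest to Pls1 (0.910), Krt4 (0.905) and Vangl2 (0.889), a resemblance that includes its single high array.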

How the data were processed

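The authors deposited a linear intensity for each of 45101 probe sets on each array, and their summarisation software is not given in the sources used. The mean after trimming 2% at each end was 500.003 or 500.004 in every array. Values below 1 (4935) were set to 1 and log2 values were quantile normalized with limma (version 3.58.1, R version 4.3.3), because the array medians differed by 1.08 log2, over the 0.2 tolerated. The 64 control probe sets were left out. Symbols came from the platform annotation: 34945 probe sets had 1 symbol, 932 several and 9160 none. One limma model with a mean for each group was fitted to the 27022 probe sets in the top 60% by mean, and a probe set was called at an adjusted p under 0.05. Intervals are 95% from this model. It was tried on simulated arrays drawn independently, which cannot show how the intervals fare where adjoining arrays deviate together. The number of arrays limits the precision.

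Adjoining array numbers were checked as pairs by correlating deviations from group means. The correlations were 0.680, 0.322 and 0.442 in the KO-labelled and 0.367 and 0.367 in the rescue-labelled line, where 2 pairs mirror each other. The members and gene lists were chosen with earlier results of these data known. Named genes were all members, up to 4 called genes of each list, the 2 largest unheated line differences each way for the lists of adhesion genes, and the 3 most alike genes. Ctnnb1, Ctcf and the marker genes named with levels were added after their values were seen. Alternatives were other scalings, floors, filters, a gene-level fit, a robust trend, the pair block and leaving out each array.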

Additional observations from a re-analysis of the deposited data

How the results depend on the processing

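No member probe set was called by limma for a preshock response under any of 18 alternatives, nor without the arrays numbered 5 and 6, a setting added after seeing the data. The values of single probe sets changed sign in 24 of 381 such fits, none of them called. Line differences stayed within 1 SD of the spread between arrays in 289 of 300 recomputed values. That count overstates stability, since the filters, the gene fit, the robust trend and the block left these differences of group means unchanged. Leaving out an array of the other condition hardly changed them. Values moved for Cdh2 with centred arrays and for Pcdhb21 and Pcdhb22 with the deposited scaling. They also moved for Cdh13 without either rescue-labelled preshocked array and for Cdh11 1435120_at, unheated, with the alternative floor. The count of member probe sets whose preshocked arrays did not overlap between the lines, 10, was 4 with the deposited scaling. The unheated count of 8 was 5 in the gene fit, which holds 1 probe set for each of the 10 genes. With the deposited scaling, unheated arrays overlapped for Pcdhb16 1441994_at, Pcdhb21 1420422_at and Pcdhb22 1418941_at, and those of Cdh13 1431824_at were apart. Leaving out 1 array gave 8 to 14 in unheated arrays, the highest without rescue unheated replicate 2 (number 32), and 10 to 13 in preshocked arrays. With fewer arrays any probe set is apart more readily. The share of all probe sets apart in each of these settings is not given here, so nothing is read from these counts. Over all probe sets the KO-labelled response had 131 calls (95 higher, 36 lower), against 69 (60 and 9) with the deposited scaling, 37 (35 and 2) with arrays centred on their medians, 27 with no filter, 265 in the brightest 40%, 259 with the replicate block of adjoining numbers and 19 to 77 without 1 array. The rescue-labelled response had 23, against 10 with centred arrays, 11 with no filter, 62 in the brightest 40%, 39 in the gene fit, 62 with the robust trend, 5 with the block, 3 to 30 without 1 array and 40 without the arrays numbered 5 and 6. The difference of responses had 0 calls, and 3 with no filter. The causes were not tested. The block changed no call of a member. With it 2 of 7 had an unadjusted p under 0.05 in the KO-labelled response, 0 in the rescue-labelled response and 1 in the difference of responses. With no filter these counts were 1, 2 and 3 of 18. The shares of all probe sets at an unadjusted p under 0.05 in these 2 settings are not given, so the counts are not read as responses.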
